A study of Sus scrofa with 70 samples.

Results

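CFTR, the 3 subunits of the epithelial sodium channel (SCNN1A, SCNN1B and SCNN1G) and ANO1 were followed through the reproductive tract of the boar. These 5 of the 35680 genes in the RNA-seq table were chosen by name, with earlier results of these data known, and the transcripts carrying each gene name were summed. The study collected the testis, the epididymis and the 3 accessory glands (the vesicular, prostate and bulbourethral gland) from 12-month-old boars of the Banna mini-pig inbred line (BMI) and the Diannan small-ear pig (DSE). Each of the 10 combinations of breed and gland had 3 RNA-seq libraries and 1 Iso-seq library. All groups share the age, and no treatment or altered allele is given for any of them. The labels do not say whether the 3 libraries came from 3 animals, so the p-values below measure the spread between libraries, which may in part be technical. The region of the epididymis and the part of each gland that were taken are not given in the sources used here.

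CFTR is a chloride and bicarbonate channel of the apical membrane that opens after phosphorylation by protein kinase A, and it is known for its role in the fluid and bicarbonate of the male tract. The epithelial sodium channel (ENaC) takes up sodium from the lumen and is built from the alpha subunit SCNN1A, the beta subunit SCNN1B and the gamma subunit SCNN1G. ANO1 is a calcium-activated chloride channel of secretory epithelia and also a marker of the interstitial cells of Cajal of smooth muscle.

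Levels are in TPM, the share of a library's transcript copies that belong to a gene, which is scaled to transcript length and to the sum of each library, so that genes can be set side by side within a library. Between libraries a TPM also moves with what the most abundant genes take up, and size factors by median of ratios, used as an alternative scaling, ran from 0.426 to 1.51 and were below 1 in all 6 vesicular gland libraries. The files hold no read counts, so the number of reads behind a TPM value is unknown, and values below 1 TPM may rest on few reads. In bulk tissue, fewer cells of a type and less RNA per cell cannot be told apart. The gland labels were checked against defining markers. PRM1 and the other germ cell markers summed to 24023 TPM or more in each testis library. The accessory gland markers summed to 104147 TPM or more in each vesicular and prostate library. Libraries standing apart were found in testis, epididymis, prostate and bulbourethral gland. DSE testis replicate 2 had the lowest germ cell sum, where the other 5 were at 70595 TPM or more, and 56335 TPM of testis somatic cell markers, where the others were at most at 29187 TPM. BMI prostate gland replicate 2 held 79994 TPM of PSP-I and 52018 TPM of AWN, seminal plasma proteins of the vesicular gland, where the other 5 prostate libraries held at most 3.8 and 2.9 TPM. It also held 88607 TPM of the prostate secretory gene MSMB. In the vesicular gland itself PSP-I ranged from 42511 to 128968 TPM. Within glands, the correlation between libraries was lowest in epididymis, with r = 0.893, and no 2 libraries were identical.

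SCNN1A had the highest level of the 5 genes, in the bulbourethral gland. Its 3 BMI libraries there were at 93.6, 77.3 and 71.5 TPM and its 3 DSE libraries at 120, 84.1 and 80.1 TPM, a mean of 87.7 ± 17.4 TPM (SD, n = 6). The lowest of these lay above all 24 libraries of the other glands, of which the highest was an epididymis library at 39.2 TPM. In epididymis the BMI libraries were at 26.2, 1.04 and 39.2 TPM and the DSE libraries at 1.58, 26.4 and 6.93 TPM, a mean of 16.9 ± 15.9 TPM (SD, n = 6). Both breeds thus had high and low epididymis libraries. SCNN1A was near or below 1 TPM elsewhere, with a lowest, median and highest library of 0.137, 0.334 and 0.739 TPM in testis and means of 0.619 ± 0.298 TPM in vesicular gland and 0.875 ± 0.276 TPM in prostate gland (SD, n = 6 each).

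In the TPM table the level of SCNN1A rests on isoforms that the Iso-seq data added to the annotation. Transcripts of Ensembl carried 0.227% of its TPM in bulbourethral gland and 0.225% in epididymis. The gene lies on the plus strand at chr5:64285015-64313613 (Sscrofa11.1), and 98.8% of its bulbourethral and 97.7% of its epididymal TPM fell on a group of transcripts whose first exons overlap between positions 64287516 and 64288065, 9 of which are in the TPM table. The Ensembl transcript of this group, ENSSSCT00000040390 with 13 exons, is not in that table. The Ensembl shares of SCNN1A and its results with Ensembl transcripts only therefore leave it out. Transcript PB.14770.8 held a mean of 46.3 TPM in bulbourethral gland and 6.59 TPM in epididymis, PB.14770.1 held 21.4 and 6.56 TPM, and PB.14770.10, which had 2 full-length Iso-seq reads, held 15.4 and 2.88 TPM. PB.14770.8 and PB.14770.1 have 13 exons each and share a predicted coding sequence of 1953 bases, which starts at position 64288240, so their first exons lie outside the predicted coding sequence. PB.14770.10 has 6 exons, a predicted coding sequence of 498 bases and a first intron that does not begin with GT. The ends of their first exons are shown because they set the isoforms apart, with 12 exon bases in capitals and 12 intron bases in lower case, 5′ to 3′ on the plus strand, and they come from chr5:64288054-64288077, chr5:64287559-64287582 and chr5:64287855-64287878 in that order.
SCNN1A PB.14770.8: CAACTCCAGCAGgtcagcgggctc
SCNN1A PB.14770.1: TGCACCTGTCAGgtgagggggagg
SCNN1A PB.14770.10: AGACAGAGACAGacagacagagga
The 200 bases before the start of PB.14770.1, the most 5′ of these starts, are at chr5:64287316-64287515 and are shown because the group of transcripts with most of the SCNN1A TPM begins after them. PB.14770.1 and PB.14770.2 start directly after this window, PB.14770.8 at position 64287590 and PB.14770.10 at position 64287805. Their GC content was 61.5%, where the median over the windows of all genes was 50.5%.
SCNN1A before PB.14770.1: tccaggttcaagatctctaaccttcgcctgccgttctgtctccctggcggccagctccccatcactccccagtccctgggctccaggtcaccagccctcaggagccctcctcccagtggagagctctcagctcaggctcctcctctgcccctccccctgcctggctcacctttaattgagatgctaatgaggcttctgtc

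CFTR was highest in epididymis, where the BMI libraries were at 2.67, 12.8 and 1.79 TPM and the DSE libraries at 0.785, 2.09 and 7.18 TPM, a mean of 4.56 ± 4.62 TPM (SD, n = 6). The spread between these libraries was as large as their mean, and the breeds overlapped. The bulbourethral gland followed, with 0.186, 2.07 and 0.318 TPM in BMI and 1.16, 1.61 and 3.89 TPM in DSE, a mean of 1.54 ± 1.36 TPM (SD, n = 6). In vesicular gland the values were 0.181, 1.21 and 0.630 TPM in BMI and 0.263, 1.95 and 1.71 TPM in DSE, a mean of 0.989 ± 0.748 TPM (SD, n = 6). The prostate libraries of BMI were at 0.0336, 0.560 and 0.00928 TPM and those of DSE at 0.00986, 0.0382 and 0 TPM. The highest of the prostate values is that of the library with vesicular gland markers. In testis CFTR was listed at 0 in 3 libraries and at 0.0109, 0.0270 and 0.0374 TPM in the others.

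CFTR lies on the minus strand at chr18:28627727-28818129 (Sscrofa11.1) with 8 transcripts that fall into 4 groups by overlapping first exons. The group furthest 5′ is the single Iso-seq transcript PB.9581.1, which held 70.0% of the CFTR TPM summed over the epididymis libraries and 3.49% of that over the bulbourethral libraries. The Ensembl transcripts whose first exons lie between positions 28816919 and 28817150, ENSSSCT00000061025 among them, held 23.5% in epididymis and 63.9% in bulbourethral gland. By library, PB.9581.1 was at 40.3%, 92.8% and 21.2% of the CFTR TPM in BMI epididymis and at 18.2%, 74.2% and 57.0% in DSE epididymis, and BMI replicate 2 held 11.9 TPM of it where the next library held 4.09 TPM. In vesicular gland it was listed at 0 in 3 libraries and made up 93.2% to 100% in the other 3, and in bulbourethral gland it was listed at 0 in 5 of the 6. Its predicted coding sequence has 4206 bases and begins at position 28779456, downstream of the first exon, where that of ENSSSCT00000061025 has 4449 bases and begins at position 28816971. The groups were drawn up after the values were seen, and salmon divides reads between overlapping transcripts, so these shares are given with no test. The 200 bases before each of the starts are shown, at chr18:28818130-28818329 and chr18:28817151-28817350 on the minus strand, and capitals mark the letters GGGCGG, the core of a GC box.
CFTR before PB.9581.1: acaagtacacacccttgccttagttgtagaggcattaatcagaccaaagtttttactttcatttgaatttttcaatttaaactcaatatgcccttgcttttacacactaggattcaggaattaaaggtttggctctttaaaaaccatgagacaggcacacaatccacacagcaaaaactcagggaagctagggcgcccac
CFTR before ENSSSCT00000061025: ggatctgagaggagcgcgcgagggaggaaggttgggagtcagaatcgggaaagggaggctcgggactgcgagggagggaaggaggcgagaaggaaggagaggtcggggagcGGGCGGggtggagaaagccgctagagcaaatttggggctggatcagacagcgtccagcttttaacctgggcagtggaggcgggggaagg
The first window had a GC content of 39.5% and none of the motifs searched, and the second had 63.5% and 1 GC box 89 bases before the start.

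The beta and gamma subunits of ENaC stayed at low levels in every gland. SCNN1B was highest in vesicular gland, with 3.58, 3.83 and 1.33 TPM in BMI and 0.963, 2.50 and 1.33 TPM in DSE, a mean of 2.26 ± 1.24 TPM (SD, n = 6). In bulbourethral gland it was at 0.143, 1.46 and 0.248 TPM in BMI and 1.10, 1.16 and 3.99 TPM in DSE. Its other glands had means of 0.164 TPM in testis, 0.581 TPM in epididymis and 0.198 TPM in prostate gland (n = 6 each). SCNN1G was highest in prostate gland, with 3.34, 0.885 and 2.68 TPM in BMI and 0.634, 3.89 and 0.566 TPM in DSE, a mean of 2.0 ± 1.48 TPM (SD, n = 6). In bulbourethral gland its values were 0.536, 1.41 and 0.485 TPM in BMI and 1.28, 1.29 and 3.09 TPM in DSE. Its means were 0.684 TPM in testis, 0.327 TPM in epididymis and 0.570 TPM in vesicular gland (n = 6 each). The pair lies side by side on the minus strand, SCNN1B at chr3:22832262-22902063 and SCNN1G at chr3:22977943-23013384 (Sscrofa11.1). In testis 17.6% of the SCNN1G TPM came from its Ensembl transcript, and the rest from PB.11816.35, a shorter Iso-seq transcript of 10 exons with a predicted coding sequence of 1116 bases, where the Ensembl transcript has 13 exons and 1959 bases.

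ANO1 was at 9.44 TPM or more in every library outside the testis and was highest in prostate gland. The prostate libraries were at 65.0, 31.0 and 78.7 TPM in BMI and 62.4, 75.6 and 63.5 TPM in DSE, a mean of 62.7 ± 16.9 TPM (SD, n = 6), and the lowest was again the library with vesicular gland markers. The bulbourethral gland had 30.6, 33.9 and 40.7 TPM in BMI and 52.7, 27.5 and 31.9 TPM in DSE, a mean of 36.2 ± 9.18 TPM (SD, n = 6). In epididymis the values were 34.1, 9.44 and 21.9 TPM in BMI and 11.4, 34.8 and 13.8 TPM in DSE, and in vesicular gland they were 14.4, 32.4 and 19.9 TPM in BMI and 10.5, 13.7 and 13.6 TPM in DSE. The 6 testis libraries lay between 0.701 and 0.947 TPM, below each of the other 24. The other markers of the interstitial cells of Cajal, KIT and ETV1, were measured beside it. KIT had medians of 3.56, 2.57, 0.839, 3.402 and 1.64 TPM in testis, epididymis, vesicular, prostate and bulbourethral gland, and ETV1 had medians of 8.18, 2.74, 0.776, 2.86 and 6.15 TPM. The ranges of both genes in testis and prostate gland overlapped, and the part of these cells in ANO1 was not tested.

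ANO1 is on the minus strand at chr2:3202161-3373411 (Sscrofa11.1) with 11 transcripts in 5 groups of first exons, of which PB.9890.1, at a mean of at most 0.855 TPM in any gland, extends to position 1327993. Outside the testis most of its TPM came from transcripts that the Iso-seq data added. The Ensembl transcripts carried 7.15% of the ANO1 TPM in bulbourethral, 11.06% in prostate and 22.5% in vesicular gland, and 24.8% in epididymis. Transcripts with a first exon between positions 3286939 and 3287325, PB.9890.157 among them, held 58.8% in prostate gland, 44.6% in bulbourethral gland, 42.3% in vesicular gland and 20.2% in epididymis. Those starting near position 3356810, PB.9890.140 among them, held 27.0% in epididymis but 1.70% in bulbourethral and 1.89% in prostate gland. The epididymal value came mainly from BMI replicate 1 and DSE replicate 2, at 14.6 and 12.2 TPM, where the other 4 epididymis libraries were between 1.19 and 2.19 TPM. The predicted coding sequence has 3066 bases in PB.9890.140 and 2931 bases in PB.9890.157. The 200 bases before each start are shown with GGGCGG in capitals, at chr2:3356811-3357010 and chr2:3287326-3287525 (Sscrofa11.1, minus strand).
ANO1 before PB.9890.140: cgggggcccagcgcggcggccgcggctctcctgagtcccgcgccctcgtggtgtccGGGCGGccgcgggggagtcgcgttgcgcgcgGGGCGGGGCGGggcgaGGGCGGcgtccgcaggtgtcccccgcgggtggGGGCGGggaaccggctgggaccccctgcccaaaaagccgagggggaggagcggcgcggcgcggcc
ANO1 before PB.9890.157: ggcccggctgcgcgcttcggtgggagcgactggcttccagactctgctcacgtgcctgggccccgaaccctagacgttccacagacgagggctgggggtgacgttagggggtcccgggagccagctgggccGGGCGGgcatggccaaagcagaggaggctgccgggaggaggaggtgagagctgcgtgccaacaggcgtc
The first has a GC content of 83.5% and 5 GC boxes, of which 2 overlap by 1 base, and the second has 70.5% and 1. GGGCGG was present in 28.2% of the same windows over 40401 annotated genes. The other letters searched on both strands were TATAAA (present in 12.1% of the windows), CCAAT (27.7%), AGAACA (11.6%), TGACGTCA (1.18%) and TGTTTAC (2.08%), and none of them was found in the 5 windows shown.

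**Figure D1:**
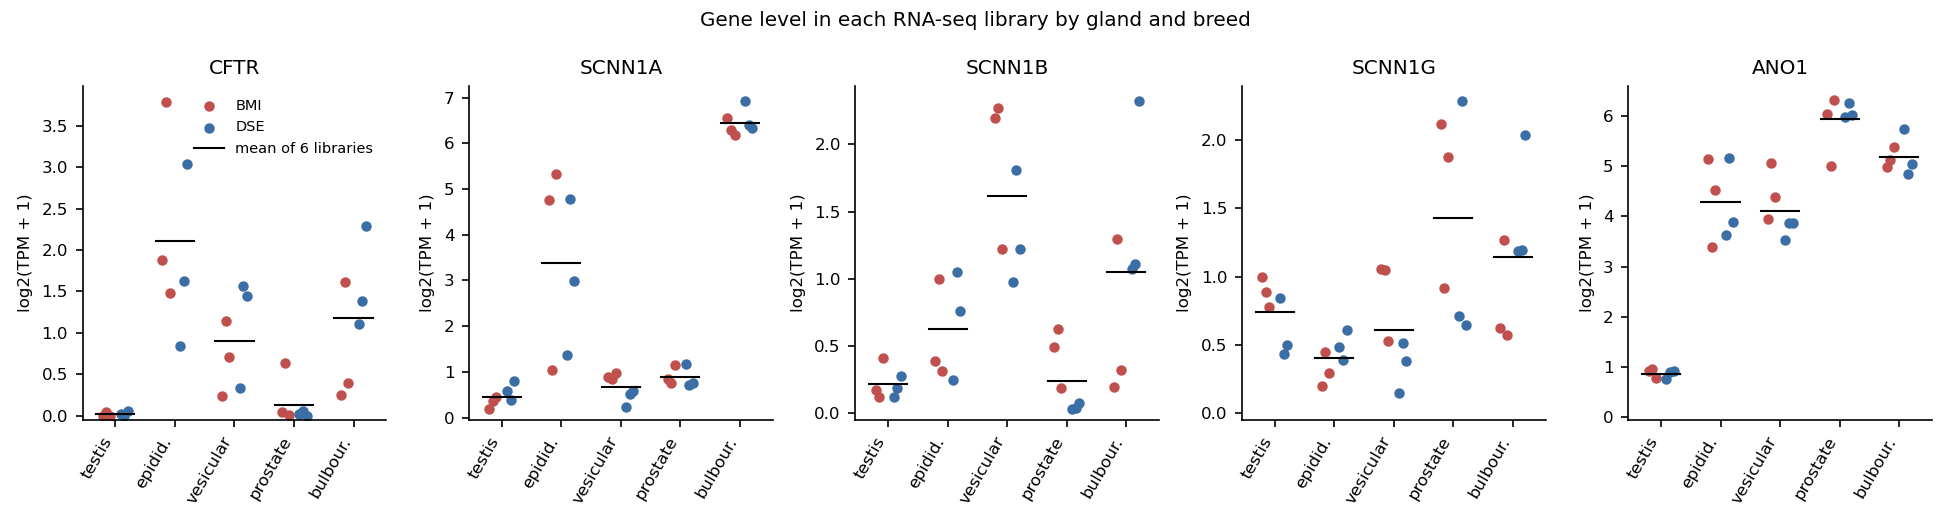
Level of each gene in the 30 RNA-seq libraries, as log2(TPM + 1), by gland, with BMI in red, DSE in blue and the mean of the 6 libraries as a black line. SCNN1A in bulbourethral gland (71.5 to 120 TPM) stands above its other glands, the epididymis libraries of CFTR and SCNN1A are spread widely, and ANO1 in testis (0.701 to 0.947 TPM) is below its other glands.

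**Figure D2:**
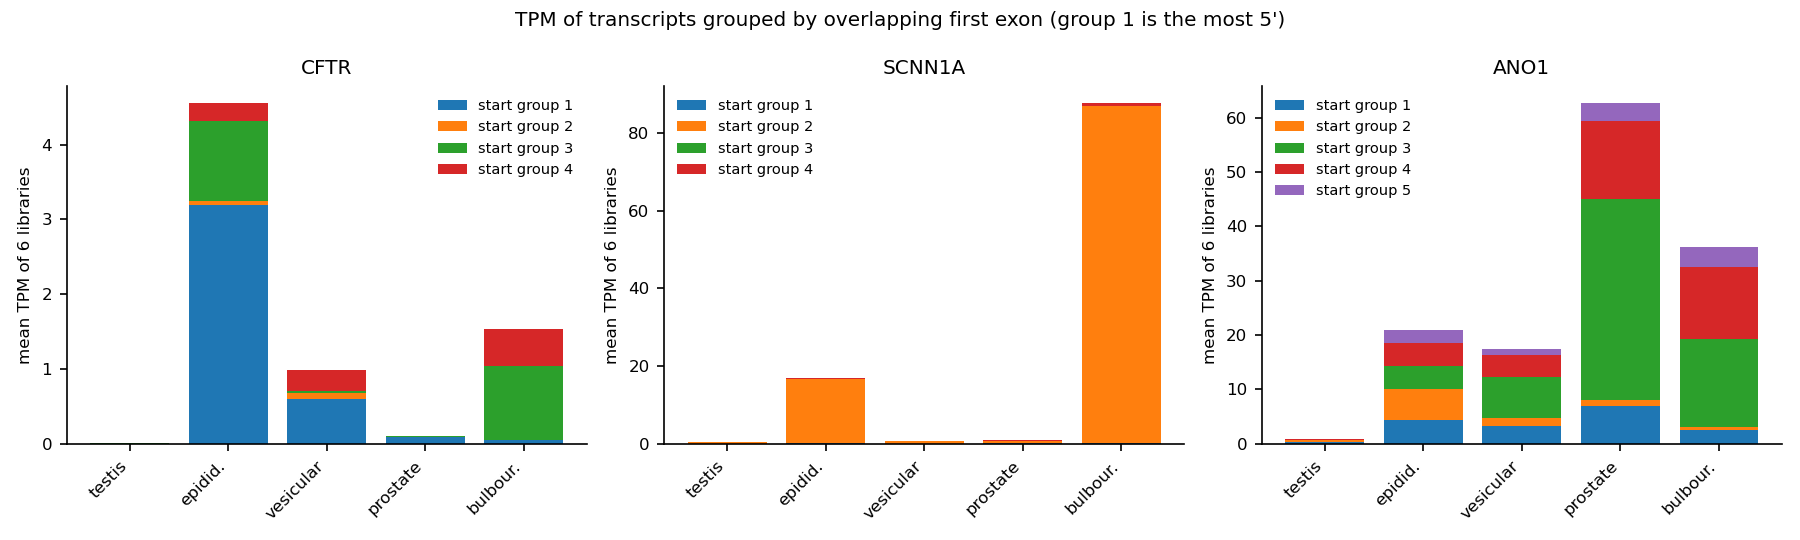
Mean TPM of 6 libraries for CFTR, SCNN1A and ANO1 by gland, stacked by groups of transcripts with overlapping first exons and numbered from the most 5′ group. CFTR in epididymis is 70.0% group 1 over the summed libraries, though 18.2% to 92.8% by library, and in bulbourethral gland mostly group 3 (63.9%), SCNN1A in bulbourethral gland is 98.8% group 2, and ANO1 in prostate gland is mostly group 3 (58.8%).

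Which glands differ in each gene was asked first by setting each gland against the mean of the other 4, with limma on log2(TPM + 1) over 19911 genes. Calls were made where the p, adjusted by Benjamini-Hochberg, was under 0.05 and the log2 difference reached 1, and differences below are log2 differences from this fit with their standard errors. Over the 5 glands, 11 of the 25 gene and gland combinations were called. In testis 3 of the 5 genes were called, all lower, where 47.3% of all genes were called, 34.5% higher and 12.7% lower. ANO1 was lower in testis by a log2 difference of -4.01 ± 0.22 (adjusted p = 1.43e-14), SCNN1A by -2.39 ± 0.40 (adjusted p = 7.29e-06) and CFTR by -1.06 ± 0.29 (adjusted p = 0.00180). All 7 of 7 epithelium markers were also lower in testis, with a median log2 difference of -6.06, and summed to 14.95 to 42.3 TPM there against 808 to 3339 TPM in the other glands. Their part in the low levels was not tested. Without DSE testis replicate 2 the 3 differences were -4.02, -2.34 and -1.05, all called. CFTR lost its testis call without BMI epididymis replicate 2 (-0.973) or DSE epididymis replicate 3 (-0.985). In epididymis CFTR was higher by 1.55 ± 0.29 (adjusted p = 6.48e-05) and SCNN1A by 1.26 ± 0.40 (adjusted p = 0.00912), so that 2 of 5 were called against 21.6% of all genes, 15.1% higher and 6.55% lower. The SCNN1A call in epididymis needed each of its 3 high libraries. It was lost without BMI replicate 1 (0.99, adjusted p = 0.0509), without BMI replicate 3 (0.85, adjusted p = 0.0649) and without DSE replicate 2 (0.82, adjusted p = 0.0756). CFTR stayed called in epididymis without any 1 of the 6 libraries, at differences from 1.20 to 1.80, but was at 0.76 and not called with Ensembl transcripts only. In epididymis 6 of 7 epithelium markers (median log2 difference 1.22) and all 5 smooth muscle markers (median 3.76) were higher as well, and their part was not tested. The epithelium contrast contains the low testis level. The summed epithelium markers had medians of 1639 TPM in epididymis, 1144 TPM in vesicular, 2035 TPM in prostate and 2760 TPM in bulbourethral gland.

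In vesicular gland SCNN1B was higher by 1.08 ± 0.19 (adjusted p = 1.69e-05) and SCNN1A was lower (-2.12, adjusted p = 4.75e-05), where 33% of all genes were called, 2.96% higher and 30% lower. The median log2 difference of all genes in this gland was -0.69, and it was -0.23 after scaling by size factors in place of TPM, which turned 589 higher and 5974 lower genes into 1380 and 2487. The same scaling turned 3004 higher and 1305 lower genes of epididymis into 1846 and 1700, with the median going from 0.25 to -0.08, and 1681 and 2382 of bulbourethral gland into 1220 and 2701, from -0.05 to -0.23. SCNN1B lost its call without BMI vesicular gland replicate 2 or DSE replicate 2, with a lowest difference of 0.96. Of the 5 smooth muscle markers 4 were also higher in vesicular gland, with a median log2 difference of 1.12. Of the 7 epithelium markers 2 were higher, and the part of these cells in the SCNN1B level was not tested. In prostate gland ANO1 was higher by 2.32 ± 0.22 (adjusted p = 1.17e-08) and SCNN1A lower (-1.85, adjusted p = 0.000450), against 16.5% of all genes called, 3.71% higher and 12.8% lower. Of the 7 epithelium markers 6 were also higher in prostate gland, with a median log2 difference of 1.58, and their part in the ANO1 level was not tested. Without BMI prostate replicate 2 the difference of ANO1 was 2.52, that of SCNN1A was -1.81, and CFTR, which had been at -0.92, passed the call at -1.02 (adjusted p = 0.00966). In bulbourethral gland SCNN1A was higher by 5.10 ± 0.40 (34.3-fold on this scale, adjusted p = 2.00e-10) and ANO1 by 1.38 ± 0.22 (adjusted p = 1.33e-05), where 20.4% of all genes were called, 8.44% higher and 12% lower. The 7 epithelium markers were all higher in this gland too, with a median log2 difference of 2.25, and summed to 2477 to 3339 TPM, while the 5 smooth muscle markers were all lower, with a median of -2.87. The part of the cell makeup in the bulbourethral levels was not tested. The contrasts of ANO1 and of the epithelium markers in prostate and bulbourethral gland contain their low testis levels. SCNN1G was called in no gland at the pseudocount of 1, with differences from -0.58 in epididymis to 0.70 in prostate gland. With a pseudocount of 0.1 it was called in both, at -1.23 and 1.26, as were SCNN1B in testis (-1.53) and prostate gland (-1.63) and CFTR in prostate (-2.29) and bulbourethral gland (1.30). With Ensembl transcripts only, 3 of the 11 calls remained, those of ANO1 in testis (-1.84) and prostate gland (1.28) and of SCNN1B in vesicular gland (1.08). CFTR in testis was then at -0.66 and ANO1 in bulbourethral gland turned to -0.40, neither of them called, and SCNN1A was below the filter and not tested. By the exact permutation of each gene over the 30 libraries, 6 of the 11 calls were lost, those of CFTR in testis, of ANO1 in bulbourethral gland and of SCNN1A in testis, epididymis, vesicular and prostate gland. The unadjusted p for SCNN1A in these 4 glands were 0.0241, 0.258, 0.0601 and 0.116, and its contrasts in testis, vesicular and prostate gland contain the high bulbourethral level.

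**Figure D3:**
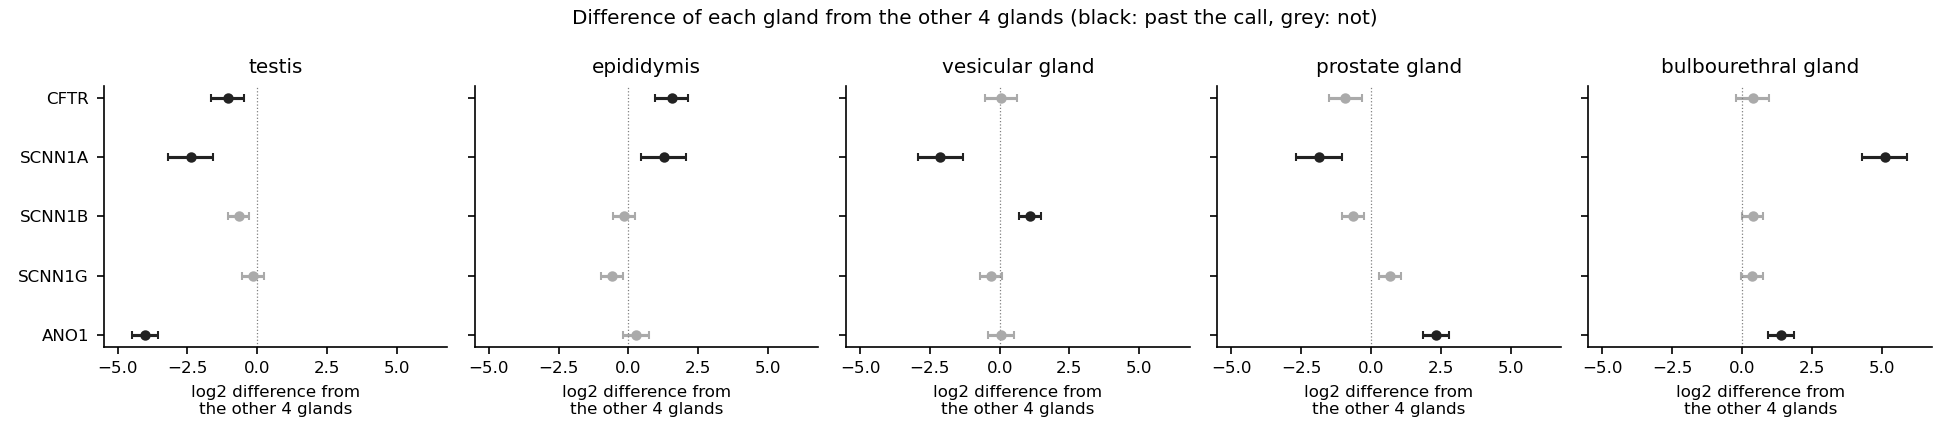
Log2 difference of each gene between 1 gland and the mean of the other 4, with its 95% interval, in black where called and in grey where not. SCNN1A in bulbourethral gland (5.10) and ANO1 in testis (-4.01) lie furthest from 0 in their directions.

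The order of the glands was examined with the 10 pairs of glands from the same fit, in which 22 of 50 tests of the 5 genes were called. The share of all genes called was 51% for testis and epididymis, 52.9% for testis and vesicular gland, 48.8% for testis and prostate gland and 49.1% for testis and bulbourethral gland. It was 36.5% for epididymis and vesicular gland and 21.3% for epididymis with either the prostate or the bulbourethral gland. Between accessory glands it was 14.8% for vesicular and prostate, 27.8% for vesicular and bulbourethral, and 7.65% for prostate and bulbourethral gland. SCNN1A was higher in bulbourethral gland than in each other gland, by log2 differences from 3.07 against epididymis (adjusted p = 2.40e-05) to 5.99 against testis, and higher in epididymis than in testis, vesicular and prostate gland by 2.92, 2.70 and 2.48. None of the 3 pairs of testis, vesicular and prostate gland was called for SCNN1A, with intervals for the 3 differences reaching from -1.47 to 0.82. The testis libraries (0.137 to 0.739 TPM) nonetheless lay mostly below the prostate libraries (0.632 to 1.25 TPM), with an unadjusted p = 0.00866 in the exact two-sided permutation test of this pair. CFTR was higher in epididymis than in testis (2.09), prostate gland (1.98) and vesicular gland (1.20), and higher in bulbourethral gland than in testis (1.16) and prostate gland (1.05, adjusted p = 0.0448). Epididymis and bulbourethral gland, the highest neighbours for CFTR, differed by 0.93 (95% interval 0.19 to 1.68), short of the log2 difference of 1. ANO1 was lower in testis than in each other gland by 3.24 to 5.07, higher in prostate gland than in epididymis (1.65) and vesicular gland (1.83), and higher in bulbourethral than in vesicular gland (1.08). Prostate and bulbourethral gland differed in ANO1 by 0.75 (95% interval 0.17 to 1.34, adjusted p = 0.0681). SCNN1B was higher in vesicular gland than in testis (1.40) and prostate gland (1.37), and SCNN1G was higher in prostate gland than in epididymis (1.02). These differences were all from limma with Benjamini-Hochberg adjustment over all genes.

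Many of these pairs depended on the scaling, on the isoforms or on single libraries. With size factors CFTR was no longer called between epididymis and vesicular gland (0.65) or between prostate and bulbourethral gland, nor was ANO1 between vesicular and bulbourethral gland (-0.26). ANO1 was then called between prostate and bulbourethral gland (1.06) and for epididymis minus bulbourethral gland (-1.02), SCNN1B for vesicular minus bulbourethral (1.12) and epididymis minus vesicular gland (-1.57), and CFTR for testis minus vesicular (-1.20) and vesicular minus prostate gland (1.05). With Ensembl transcripts only, the calls were lost for CFTR between epididymis and vesicular gland (0.78), for SCNN1G in epididymis minus prostate gland (-0.88) and for ANO1 in epididymis minus prostate (-0.49), vesicular minus prostate (-0.80) and vesicular minus bulbourethral gland, which turned to 0.54, while ANO1 was called between prostate and bulbourethral gland (1.34) and SCNN1A was not tested. A pseudocount of 0.1 added 11 calls, 5 of SCNN1B, 4 of SCNN1G and 2 of CFTR. CFTR between epididymis and vesicular gland lost its call without BMI epididymis replicate 2 (0.85) or DSE epididymis replicate 3 (0.90), and that between testis and bulbourethral gland without BMI bulbourethral replicate 2 or DSE bulbourethral replicate 3. CFTR between prostate and bulbourethral gland lost it in 17 of the 30 fits that left out 1 library, and SCNN1G between epididymis and prostate gland in 5, with the smallest difference (-0.76) without DSE prostate replicate 2. ANO1 between vesicular and bulbourethral gland lost its call without BMI vesicular replicate 1 or DSE bulbourethral replicate 1. The pairs that gained a call without 1 library were CFTR between testis and vesicular and between epididymis and bulbourethral gland, SCNN1B between epididymis and vesicular gland and ANO1 between epididymis and bulbourethral gland.

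The bulbourethral gland also stood apart in the balance of the 2 channels. The log2 ratio of CFTR + 1 to SCNN1A + 1 TPM had a mean of -5.28 ± 0.84 (SD, n = 6) in bulbourethral gland, -1.27 ± 2.50 in epididymis, -0.77 in prostate gland, -0.44 in testis and 0.23 in vesicular gland. It was lower in bulbourethral gland than in each of the other 4 by 4.01 to 5.51 (exact two-sided permutation test, adjusted p = 0.00541 over 10 pairs). Vesicular and prostate gland differed by 1.0 (exact permutation test, adjusted p = 0.0216), and the other 5 pairs did not pass the threshold, though testis and vesicular gland did with a pseudocount of 0.1 (exact permutation test, adjusted p = 0.0108) and with Ensembl transcripts only (0.0346). With Ensembl transcripts only, testis minus epididymis (-1.12) and epididymis minus prostate gland (1.14) also passed, both opposite in sign to the values with all transcripts (exact permutation test, adjusted p = 0.00541 each), and vesicular minus prostate gland did not (0.40, adjusted p = 0.0613). In epididymis the ratio ran from -3.85 in BMI replicate 3 to 2.76 in BMI replicate 2, so single libraries of this gland had either gene higher. Within ENaC, SCNN1A made up 97.0 ± 2.72% of the summed TPM of the 3 subunits in bulbourethral gland, 82.3 ± 21.4% in epididymis, 35.4 ± 20.1% in prostate gland and 19.2 ± 8.66% in vesicular gland (SD, n = 6 each). Testis was left out because 1 library had a sum below 1 TPM, at 0.782. The share in vesicular and prostate gland was below that in bulbourethral gland by 77.7 and 61.6 percentage points (adjusted p = 0.00433 each) and below that in epididymis by 63.1 (adjusted p = 0.00433) and 46.9 points (adjusted p = 0.0130, exact permutation tests over 6 pairs). Epididymis and bulbourethral gland differed by 14.7 points (exact permutation test, adjusted p = 0.113). Both measures rest on the Iso-seq isoforms of SCNN1A. With Ensembl transcripts only, none of the share differences passed the threshold, with vesicular minus bulbourethral gland at -7.53 points (exact permutation test, adjusted p = 0.0909). The ratio in bulbourethral gland was then above that of testis and prostate gland and no longer below it (exact permutation test, adjusted p = 0.00541 each). Vesicular minus bulbourethral gland (-0.55, adjusted p = 0.141) and epididymis minus bulbourethral gland (0.19, adjusted p = 0.676) did not pass in the same test.

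The epididymis libraries differed from one another in the genes that mark their cells, and for some libraries these values moved with the members. BMI replicate 2, with the highest CFTR (12.8 TPM) and the lowest SCNN1A (1.04 TPM), held 9677 TPM of LCN8 and 10294 TPM of RNASE10, where the other 5 libraries held at most 21.2 and 20.1 TPM. DSE replicate 3, with the next highest CFTR (7.18 TPM), was among these 5, with 3.88 TPM of LCN8 and 15.4 TPM of RNASE10. ADAM7 was between 468 and 2780 TPM in all 6. The germ cell markers PRM1, PRM2, TNP1, SYCP3, DDX4 and ACR summed to 974 TPM at most in epididymis, and PRM1 was highest in BMI replicate 2 at 744 TPM. BMI replicate 1 and DSE replicate 2, with SCNN1A at 26.2 and 26.4 TPM and ANO1 at 34.1 and 34.8 TPM, had the highest ACTA2, at 3763 and 4812 TPM, and the highest AWN, at 2446 and 679 TPM. BMI replicate 3, with the highest SCNN1A (39.2 TPM), did not follow them, with 1842 TPM of ACTA2 and 1.7 TPM of AWN. CRISP1 was at 21.3 TPM in DSE replicate 1, the library with the lowest CFTR (0.785 TPM), and between 1100 and 2759 TPM in the others. That library also had the most extreme score of the 30 (0.531) on the first principal component of log2(TPM + 1) after removing the means of breed and gland, which held 33.4% of that variation, and what this component reflects was not tested. By the paper's supplement the same library had the lowest median transcript integrity number of the 30, a measure of RNA quality. In each of the 5 glands the library with the highest score had the lowest such number of its gland. The part of RNA quality in these values was not tested. The part of these cells and regions in the levels of the members was not tested.

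**Figure D4:**
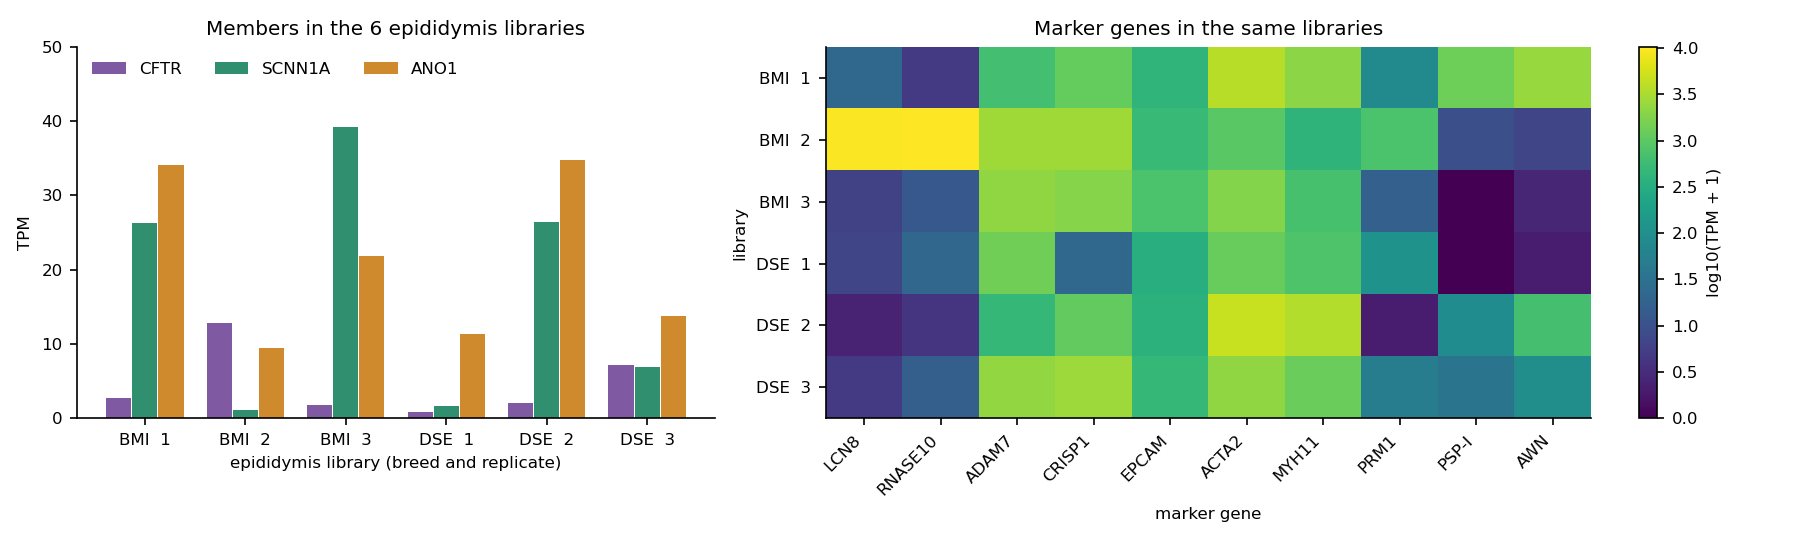
CFTR, SCNN1A and ANO1 in TPM in the 6 epididymis libraries (left, bars from 0) and marker genes of the same libraries as log10(TPM + 1) in colour (right). BMI replicate 2 alone has high LCN8 (9677 TPM) and RNASE10 (10294 TPM) and has the highest CFTR.

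In the bulbourethral gland CFTR, SCNN1B and SCNN1G put the 6 libraries in nearly the same order, and SCNN1A did not follow it. All 3 were lowest in BMI replicates 1 and 3 and highest in DSE replicate 3, at 3.89, 3.99 and 3.09 TPM. Of the 5 measured markers of ionocytes or clear cells, epithelial cells rich in proton pumps, FOXI1, ATP6V1B1 and ATP6V1G3 were likewise lowest in BMI replicates 1 and 3 and highest in DSE replicate 3. FOXI1, a transcription factor of these cells, was at 0.58, 5.74 and 1.17 TPM in BMI and 3.16, 3.97 and 9.84 TPM in DSE, and the proton pump subunit ATP6V1B1 was at 0.70, 6.62 and 0.88 TPM in BMI and 4.80, 4.51 and 12.98 TPM in DSE. ATP6V1G3, another subunit of the pump, ran from 0.198 to 9.90 TPM. CA2 stayed between 0.965 and 2.08 TPM and did not follow this order, and ATP6V0D2 was listed at 0 in BMI replicates 1 and 3 and was at most 0.541 TPM. The 5 of the 6 listed markers in the table summed to between 3.10 and 34.4 TPM in this gland, and against the other glands the first 3 were called higher and CA2 lower, where 8.44% of all genes were higher and 12% lower. ATP6V1B1 was at most 0.943 TPM in the other glands, and FOXI1 passed 1 TPM elsewhere only in epididymis, where its median was 0.128 TPM. Both entered the test through the bulbourethral libraries, so their calls add nothing to their levels. The epididymis did not show the same pairing, since DSE replicate 1 had the highest sum of these markers there, at 12.1 TPM against at most 3.72 TPM in the other 5, but the lowest CFTR and SCNN1B, at 0.785 and 0.184 TPM, and a SCNN1G of 0.398 TPM, below only DSE replicate 3 (0.526 TPM). This pairing was noticed after the values were seen, and the part of such cells in the 3 genes was not tested. DSE replicate 3 also held skeletal muscle markers, with 881 TPM summed over MYH1, ACTA1 and CKM. In prostate gland the same marker sum was 70.1 to 238 TPM through CA2, with FOXI1 at most at 0.63 TPM.

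Differences between the breeds were then tested within each gland, BMI minus DSE, in genes that passed a filter on low values in that gland. None of the members was called in any gland. In the epididymis fit 0 of 15402 genes were called (0%), with 292 at an unadjusted p below 0.05, and CFTR differed by 0.55 ± 0.80 and SCNN1A by 0.67 ± 1.31 on the log2 scale. In vesicular gland, where 1.18% of all genes were called, ANO1 was between 14.4 and 32.4 TPM in BMI and between 10.5 and 13.7 TPM in DSE, so the breeds did not overlap in TPM, and the log2 difference was 0.71 ± 0.32 (adjusted p = 0.263). All genes tested leaned to BMI there, with a median of 0.42 in TPM and 0.047 with size factors. Divided by size factors, ANO1 was between 22.7 and 34.6 in BMI and between 21.5 and 24.7 in DSE, which overlap, and its log2 difference was 0.28. SCNN1A there was between 0.803 and 0.956 TPM in BMI and between 0.182 and 0.500 TPM in DSE, below the filter, so that it was not tested. These values did not overlap in TPM but did with size factors, at 0.857 to 1.46 in BMI and 0.427 to 0.896 in DSE. SCNN1G in vesicular gland and SCNN1B in prostate gland did not overlap under either scaling and were also below the filter. With size factors the lowest BMI value of SCNN1G was 0.675 and its highest DSE value 0.667. How many of all genes keep the breeds apart in this way was not counted, so no breed difference is read from these ranges. In prostate gland 0.341% of all genes were called, and ANO1 and SCNN1G differed by -0.30 ± 0.34 and 0.42 ± 0.51. In bulbourethral gland 0.0218% were called, SCNN1A differed by -0.21 ± 0.21, and CFTR, SCNN1B and SCNN1G differed by -0.84, -0.90 and -0.65 with adjusted p = 1.0 each (limma). In testis, where 0.621% of all genes were called, no member passed the filter on low values. The interaction of breed and gland was called for 2.94% of all genes and for no member, with the smallest value in SCNN1B (adjusted p = 0.331, F test of limma over all 30 libraries). The intervals of the epididymal differences ran from -1.34 to 2.44 for CFTR and from -2.44 to 3.77 for SCNN1A, so that several-fold differences in either direction lie within them.

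Iso-seq gave full-length reads for all 5 genes, in small numbers and with 1 library per breed and gland, so that no differences were tested. The library totals were between 231413 and 458697 reads. SCNN1A had 148 reads in 5 libraries, of which 100 were in DSE bulbourethral gland (exact Poisson 95% interval 81.4 to 122), 36 in BMI bulbourethral gland (25.2 to 49.8) and 10 in BMI epididymis. PB.14770.8 accounted for 95 of them, with 66 in DSE bulbourethral gland, 21 in BMI bulbourethral gland and 8 in BMI epididymis. PB.14770.1, which has the same predicted coding sequence, had 9. PB.14770.10, with the third highest TPM of these isoforms, had 2, both in DSE bulbourethral gland. CFTR had 11 reads, of which 9 came from BMI epididymis (interval 4.12 to 17.1) and 1 each from the vesicular glands of BMI and DSE. PB.9581.1, of 27 exons, had 6 of them and was the isoform seen in both vesicular libraries. The other 5, all from BMI epididymis, belonged to PB.9581.2, which has 14 exons and matches the 5′ part of ENSSSCT00000055376. Its start lies 4 bases from that transcript's, in the Ensembl group of first exons described above, so that the BMI epididymis reads divided into 4 at the start of PB.9581.1 and 5 at the Ensembl start. The bases after the end of PB.9581.2 are 60% A and no polyadenylation motif was found for it. ANO1 had 23 reads in 7 libraries, the most in BMI bulbourethral gland with 8, and none in testis, where 0 reads allow up to 3. SCNN1B had 7 and SCNN1G 8 reads, with at most 3 and 2 in any library. The intervals cover counting error only.

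**Figure D5:**
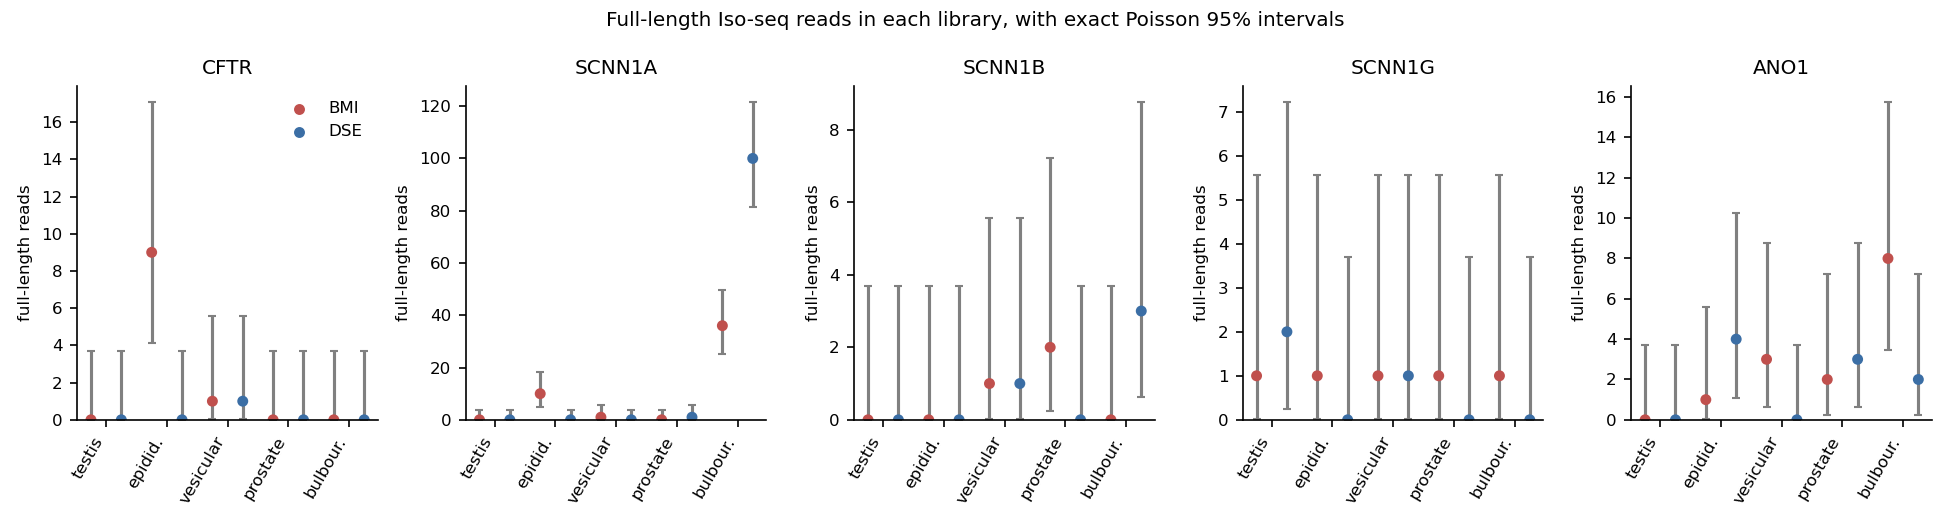
Full-length Iso-seq reads of each gene in the 10 libraries, BMI in red and DSE in blue, with exact Poisson 95% intervals. Both bulbourethral libraries stand out for SCNN1A (100 and 36 reads), and BMI epididymis for CFTR (9 reads).

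The regulators of ENaC were taken as a list of 22 genes, of which 19 were in the table and tested. In bulbourethral gland 7 of the 19 were higher and 1 lower, with a median log2 difference of 0.58 where that of all genes was -0.05, and 8.44% of all genes were higher and 12% lower. SPINT1, an inhibitor of membrane proteases, was at a median of 193 TPM there against 53.7 TPM in the other libraries (log2 difference 2.93 ± 0.15, adjusted p = 8.52e-14). BPIFA1, a secreted protein known to inhibit ENaC, had a median of 4.22 TPM there and at most 0.0832 TPM elsewhere (2.13 ± 0.34, adjusted p = 1.21e-05). It passed the filter of 1 TPM only through libraries of this gland, so its call adds nothing to these levels. In epididymis 5 were higher and none lower, where 15.1% of all genes were higher and 6.55% lower, led by TMPRSS4, a protease known to activate ENaC, with 7.59 to 89.5 TPM against at most 2.46 TPM elsewhere (4.92 ± 0.30, adjusted p = 1.89e-12). In testis 4 were higher and 6 lower, against 34.5% and 12.7% of all genes, and PRSS8 (prostasin, a channel-activating protease) fell from 58.7 TPM or more in every other library to at most 0.584 TPM (-6.65 ± 0.19, adjusted p = 1.80e-20). SPINT1 was at most 0.261 TPM in testis, where the lowest other library was at 30.4 TPM (-6.17 ± 0.15). The contrasts of SPINT1 and PRSS8 in the other glands contain these low testis levels. In vesicular gland 2 were higher and 6 lower, against 2.96% and 30% of all genes, among them HSD11B2, which protects the mineralocorticoid receptor from cortisol (-1.86 ± 0.35), and the protease TMPRSS2 (2.13 ± 0.26), and in prostate gland 3 were higher and 2 lower, against 3.71% and 12.8%, among them PRSS8 (1.91 ± 0.19) and the kinase STK39 (-2.37 ± 0.30).

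Of 28 scaffolds, folding factors and cAMP signalling genes of CFTR, 26 were tested. In testis 4 were higher and 6 lower, where 34.5% of all genes were higher and 12.7% lower. ADCY10, the bicarbonate-sensitive soluble adenylyl cyclase, was at 12.2 to 37.1 TPM in testis and at most 0.331 TPM elsewhere (log2 difference 4.78 ± 0.13, adjusted p = 3.86e-21), and the scaffold SLC9A3R1 was at most 26.2 TPM there and at least 50.4 TPM elsewhere (-2.91 ± 0.18). ADCY10 passed the filter of 1 TPM only through testis libraries, so its call adds nothing to its levels. With Ensembl transcripts only, the difference of SLC9A3R1 was -0.84 and was not called. In epididymis 4 were higher and 1 lower, against 15.1% and 6.55% of all genes. The scaffold PDZK1 was higher there (3.96 ± 0.66, adjusted p = 1.89e-05) but ran from 0.246 to 259 TPM between the 6 libraries, and AHCYL1, which binds IP3 receptors, was at a median of 209 TPM (1.70 ± 0.19). In vesicular gland 2 were higher, with VIPR1, a receptor of vasoactive intestinal peptide, at 2.30 ± 0.42, and 6 were lower, with the adenylyl cyclase ADCY3 at -1.71 ± 0.16, where 2.96% of all genes were higher and 30% lower. ADCY3 was at -0.99 and not called with Ensembl transcripts only. The prostate and the bulbourethral gland each had 1 higher and 1 lower, against 3.71% and 12.8% of all genes in the first and 8.44% and 12% in the second. The former was the scaffold SLC9A3R2 (1.47 ± 0.23 and 1.75 ± 0.23) and the latter ADCY10 (-1.16 and -1.24), whose contrast contains the high testis level.

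Of 27 other anion channels and exchangers, 20 were tested. In vesicular gland 2 were higher and 12 lower, with a list median of -1.17 where that of all genes was -0.69 and where 2.96% of all genes were higher and 30% lower. The chloride and bicarbonate exchanger SLC26A3 was at 73.6 to 159 TPM in vesicular gland (5.18 ± 0.62, adjusted p = 1.20e-07) and at 2.34 to 152 TPM in epididymis (3.399 ± 0.62, adjusted p = 6.18e-05). In prostate gland, where 1 was higher and 5 lower against 3.71% and 12.8% of all genes, SLC26A3 fell by 2.19 on the log2 scale and reached 56.1 TPM in its highest library, with a median listed at 0. The volume-regulated channel subunit LRRC8B was called higher in testis (5.49 ± 0.25) and lower in vesicular gland (-2.46 ± 0.25). Testis had 8 higher and 5 lower, against 34.5% and 12.7% of all genes, led by BEST1, a bestrophin channel, with 21.2 to 117 TPM against at most 2.91 TPM elsewhere (5.71 ± 0.19). Epididymis had 5 higher and 3 lower, against 15.1% and 6.55%, with the ANO1 relative ANO3 at 2.91 ± 0.20. In bulbourethral gland 3 were higher and 3 lower, against 8.44% and 12% of all genes. CLCA1 and CLCA2, regulators of calcium-activated chloride current, were at 41.9 to 1154 and 75.1 to 217 TPM there and at most 0.985 and 5.28 TPM elsewhere (7.91 ± 0.29 and 6.45 ± 0.17). CLCA1 passed the filter of 1 TPM only through bulbourethral libraries, so its call there adds nothing to its levels. CLCA1 was called lower in prostate gland (-2.19 ± 0.29), a contrast that contains the high bulbourethral level.

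The list of basolateral chloride entry, potassium channels and calcium signalling had 21 genes, of which 20 were tested. In bulbourethral gland 6 were higher and 2 lower, where 8.44% of all genes were higher and 12% lower. SLC12A2, the cotransporter that loads secretory cells with chloride, was at 318 to 575 TPM in bulbourethral gland (5.09 ± 0.28, adjusted p = 2.01e-13) and at 82.5 to 473 TPM in prostate gland (3.92 ± 0.28), and it was lower in vesicular gland at 1.42 to 7.88 TPM (-3.08 ± 0.28). KCNN4, a calcium-activated potassium channel, was at medians of 188 and 148 TPM in bulbourethral and prostate gland and of 1.08 and 0.748 TPM in epididymis and testis, and it was called higher in the first pair (4.01 and 3.07) and lower in the second (-4.30 and -4.32). KCNQ1, another potassium channel, was at most 4.03 TPM in epididymis and at least 16.3 TPM elsewhere (-4.53 ± 0.24). KCNE1, its small partner subunit, was higher in testis (3.69 ± 0.30) and lower in vesicular gland (-2.29 ± 0.30). In testis 9 were higher and 5 lower, against 34.5% and 12.7% of all genes, and in epididymis 4 and 3, against 15.1% and 6.55%. In vesicular gland 1 was higher and 7 lower, against 2.96% and 30%, and in prostate gland 2 and 3, against 3.71% and 12.8%. Between the breeds 1 gene of these 4 lists was called, ANO3, which was lower in BMI in vesicular gland and is named after its value was seen. There 14, 23, 12 and 16 genes of the lists were tested, and 1.18% of all genes were called.

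The genes whose log2(TPM + 1) was most like that of each member over the 30 libraries were sought among 12856 or 12857 genes with a mean of at least 1 TPM. For ANO1 these were IRX3 (Pearson r = 0.974), ZBTB42 (0.960) and CD9 (0.954). IRX3 had medians of 201 TPM in prostate gland, 106 TPM in bulbourethral gland and 0.119 TPM in testis. For SCNN1A they were TCEA3 (0.916), GIPR (0.915) and MST1R (0.909), and TCEA3 had medians of 198 TPM in bulbourethral gland and 37.6 TPM in epididymis. For CFTR they were GPNMB (0.878), SLC66A3 (0.853) and OXTR (0.845), for SCNN1B they were DUOXA1 (0.820), DEFB1 (0.745) and HOXD1 (0.742), and for SCNN1G they were ST8SIA1 (0.771), TM4SF18 (0.692) and TFCP2L1 (0.689). The libraries of a gland share its makeup, so that these correlations follow the differences between glands and are given without a test.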

How the data were processed

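The sources differ on the libraries: the labels give Trizol extraction with removal of ribosomal RNA, and the methods give TRNzol reagent with poly-T bead selection and the NEBNext Ultra kit. The authors quantified transcripts with salmon against the Ensembl annotation merged with Iso-seq isoforms, and deposited TPM without counts. The submitters' processing notes name GSNAP, STAR 2.7.10a, Salmon 1.9.0 and Bowtie 1.3.1 and the genome build susScr11. Iso-seq is given as raw counts of full-length reads per isoform and library, deposited by the authors after clustering and classification with SQANTI3. The deposited percent of A bases after each isoform's end comes from the same classification and was read only as an isoform feature. Small RNA files were not used here.

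TPM were summed by gene name, and genes that reached 1 TPM in 3 or more libraries entered limma 3.58.1 (R 4.3.3, eBayes with trend) on log2(TPM + 1), with group means of breed and gland. The pseudocount understates changes of low genes. Breeds were compared in the 6 libraries of a gland, with the filter applied there. Calls needed a p under 0.05 after Benjamini-Hochberg adjustment together with a log2 difference of 1, and the interaction was tested by F. Ratio and share were tested by exact permutation of libraries. Scripts ran in Python 3.11.15 (pandas 2.3.3, numpy 2.4.6, matplotlib 3.10.9, scipy 1.17.1). The fit was tested on simulated data with planted differences in epididymis. At a planted log2 difference of 2 the gland fit recovered 97.5% of 200 genes, with 137 false calls among 17411 genes tested. The breed fit recovered 32.5% at a planted difference of 2 and 76% at 4, with 3 and 13 false calls. Breed differences of this size can thus go uncalled.

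Members, lists and tests were chosen with earlier results of these data known. Named in the text were the 5 members, up to 2 called genes of each of 4 lists and gland with the largest difference, the 3 genes most correlated with each member, and markers of 11 cell type lists that moved with a result. Some listed names, SCNN1D, TSC22D3, OXSR1, ANO2, ANO7, CLCA4 and ASCL3 among them, did not match a gene name in the table. Sequences were read from the Sscrofa11.1 genome, the build of the files, at first exons of the deposited annotation. Transcripts whose first exons overlap formed a group. Strandedness of the libraries is not given in the sources used here. Alternatives were a pseudocount of 0.1, no filter, median-of-ratios size factors, Ensembl transcripts only, sums by gene ID, a library axis as covariate, the replicate number as a block, one fit of all glands and leaving out each library. Weights by gland and the exact permutation of single genes were added after the data were seen.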

Additional observations from a re-analysis of the deposited data

Results flagged for a closer look

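Of the 25 sets of 6 libraries of a gene in a gland, 4 held a library far from the other 5. The limit used flags about 1 set in 20 by chance where the sets are independent and the values normally distributed. TPM need not be so distributed, and the flags fell on 2 libraries, so the count is not set against that rate. In prostate gland this was BMI replicate 2 for both CFTR, at 0.560 TPM with the nearest other library at 0.0382 TPM, and ANO1, at 31.0 TPM with the nearest at 62.4 TPM. The same library held 79994 TPM of PSP-I, and the part of vesicular gland RNA in its values was not tested. In bulbourethral gland it was DSE replicate 3 for both SCNN1B, at 3.99 TPM with the nearest at 1.46 TPM, and SCNN1G, at 3.09 TPM with the nearest at 1.41 TPM. That library also had the highest FOXI1 of its gland, at 9.84 TPM, and 689 TPM of the skeletal muscle gene ACTA1.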

How the results depend on the processing

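Without counts, the number of reads behind TPM values below 1 is unknown. The counts of called gene and gland combinations and pairs, 11 and 22, were 17 and 33 with a pseudocount of 0.1, 10 and 25 with size factors, 11 and 21 without the filter, 3 and 11 with Ensembl transcripts only, and 5 and 22 by exact permutation of each gene, which was chosen after the data were seen and adjusted over the tests of these 5 genes alone. With the replicate number as a block they were 11 and 22. The numbers were not taken to pair libraries, since the median correlation of same-numbered libraries was -0.04 between breeds and 0.05 between glands, over 0.1 in 4 of 15 and 20 of 60 pairs. No member was called between breeds or in the interaction under any alternative. Leaving out 1 library gave 10 to 12 and 20 to 24 calls.

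With Ensembl transcripts only, the mean levels were 0.0251, 0.0381, 0.00845, 0.0534 and 0.199 TPM for SCNN1A in testis, epididymis, vesicular, prostate and bulbourethral gland, 0.440, 5.18, 3.92, 6.93 and 2.59 TPM for ANO1, and 0.120 TPM for SCNN1G in testis. The ratio of CFTR to SCNN1A then differed by -1.12 (testis minus epididymis), -0.38 (testis minus vesicular), -0.93 (testis minus bulbourethral), 0.74 (epididymis minus vesicular), 1.14 (epididymis minus prostate), 0.19 (epididymis minus bulbourethral), 0.40 (vesicular minus prostate), -0.55 (vesicular minus bulbourethral) and -0.95 (prostate minus bulbourethral). The SCNN1A share differed by 2.29 (epididymis minus vesicular), -4.91 (epididymis minus prostate), -7.53 (vesicular minus bulbourethral) and -0.33 points (prostate minus bulbourethral). ANO1 turned to -0.40 in bulbourethral gland and to 0.54 for vesicular minus bulbourethral gland. By construction these values leave out the Iso-seq isoforms, and for SCNN1A also ENSSSCT00000040390, which has no TPM.

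A pseudocount of 0.1 gave ratio differences of -0.58 (testis minus epididymis), -2.38 (testis minus vesicular) and 1.16 (epididymis minus prostate). Size factors gave vesicular means of 0.940 TPM for SCNN1A and 26.4 TPM for ANO1, and SCNN1A in epididymis (0.96), CFTR for epididymis minus vesicular gland (0.65) and ANO1 for vesicular minus bulbourethral gland (-0.26) were no longer called. CFTR for prostate minus bulbourethral gland lost its call with size factors and without the filter (adjusted p = 0.0917). Leaving out 1 library, the ratio differed by -0.85 to -0.51 (testis minus vesicular), 0.25 to 0.45 (testis minus prostate), -2.30 to -0.98 (epididymis minus vesicular) and -1.31 to 0.013 (epididymis minus prostate, positive without BMI epididymis replicate 3), and the share by -18.0 to -6.89 (epididymis minus bulbourethral) and -20.4 to -10.1 points (vesicular minus prostate). CFTR in testis (-1.12 to -0.97) lost its call without BMI epididymis replicate 2 or DSE epididymis replicate 3.

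Counts over all genes also moved. Against the other glands, the 9414, 4309, 6563, 3289 and 4063 genes of testis, epididymis, vesicular, prostate and bulbourethral gland became 5567, 2596, 3480, 1711 and 2330 with Ensembl transcripts only, the last 4 became 6543, 10465, 5955 and 6810 with a pseudocount of 0.1, and vesicular gland had 3867 with size factors. Of the pairs, epididymis and vesicular gland went from 7261 to 3084 and vesicular and bulbourethral gland from 5528 to 3257 with size factors, vesicular and prostate gland from 2940 to 4610 with a pseudocount of 0.1, and 9 of the 10 from between 2940 and 10530 to between 1720 and 6106 with Ensembl transcripts only. Size factors also moved the split of higher and lower genes, from 6878 and 383 to 1935 and 1149 for epididymis minus vesicular, from 3514 and 731 to 2082 and 1209 for epididymis minus prostate, from 8930 and 1600 to 6531 and 3208 for testis minus vesicular, from 682 and 2258 to 1278 and 1141 for vesicular minus prostate, from 823 and 4705 to 1745 and 1512 for vesicular minus bulbourethral, and from 400 and 1123 to 645 and 666 for prostate minus bulbourethral gland. The interaction had 586 genes, 278 with a pseudocount of 0.1, 1061 without the filter and 196 with Ensembl transcripts only. Between the breeds, the 102, 0, 150, 46 and 3 genes of the 5 glands became 949, 140, 95, 119 and 59 in one fit of all glands. In testis, vesicular, prostate and bulbourethral gland they became 379, 722, 829 and 32 with the library axis, 31, 1, 0 and 0 without the filter, and 13, 15, 15 and 1 with Ensembl transcripts only. Prostate and bulbourethral gland had 18 and 10 with a pseudocount of 0.1 and 18 and 17 with size factors, and the replicate block gave 258 in testis, 678 in vesicular and 0 in prostate gland. Leaving out 1 library gave 3 to 258 in testis, 57 to 445 in vesicular 0 to 938 in prostate and 0 to 5 in bulbourethral gland, and 357 to 1178 in the interaction. The cause was not tested.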
